A study of Mus musculus with 6 samples.

Results

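The 6 genes used here as markers of adventitial progenitor fibroblasts, Dpp4, Pi16, Cd55, Efemp1, Sema3c and Anxa3, were followed in single cells of the lower abdominal muscle (LAM). The members were taken by name, 6 of the 16494 genes in the table, and all 6 had UMIs (unique molecular identifiers, 1 per captured transcript) in every mouse. They were measured across the fibroblast subtypes and the mesothelium and compared between 3 WT and 3 Aromhum male mice, all FVB/N and 9 to 10 weeks old. Aromhum mice carry the human aromatase gene CYP19A1 under its own human promoter region, so its tissue pattern follows that of the human gene, and they develop scrotal hernia with fibrosis of the LAM. WT mice carry no transgene, and the labels name no drug for either group. Each library came from 1 mouse, and 1 WT mouse and 1 Aromhum littermate were processed on each of 3 dates. The dissociated tissue had passed a filter meant to hold back multinucleated cells.

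Fibroblasts of many tissues fall into a perivascular, adventitial kind and a parenchymal kind that sits among the working cells of the organ. The adventitial kind lies in the outer sheath of vessels and in fascia, carries Pi16 and Dpp4, and is regarded as a reserve from which other fibroblasts can arise. Dpp4 (CD26) is a cell surface protease that cuts chemokines and incretins. Pi16 is a membrane-bound protein of the CRISP family, Cd55 is a surface inhibitor of complement convertases, Efemp1 is the matrix glycoprotein fibulin-3, Sema3c is a secreted semaphorin that signals through neuropilin and plexin receptors, and Anxa3 is a calcium-dependent phospholipid-binding annexin.

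All 6 are protein-coding. In the GENCODE M21 annotation of GRCm38, the assembly also called mm10, Dpp4 lies at chr2:62330073-62412231 on the minus strand, Pi16 at chr17:29317680-29330593 on the plus strand and Cd55 at chr1:130439027-130462744 on the minus strand. Efemp1 lies at chr11:28853204-28926743, Sema3c at chr5:17574281-17730268 and Anxa3 at chr5:96793339-96845966, these 3 on the plus strand. Cd55 has a neighboring paralog, Cd55b, that is not a row of the table, so reads shared by the pair cannot be told apart here.

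RefSeq promoters (GRCm38.p6, from 250 bases before to 50 after the start) were at hand for 5 of the 6 members. The windows for Pi16 and Sema3c lie inside the gene spans given above, past the GENCODE start of each gene. Below are those of Pi16 and Cd55, the pair that was higher in Aromhum FAPs, and of Efemp1 and Sema3c, which had the largest lower values in Aromhum mesothelium. The windows are chr17:29318632-29318931 (plus strand) for Pi16, chr1:130462695-130462994 (minus strand) for Cd55, chr11:28852955-28853254 (plus strand) for Efemp1 and chr5:17574566-17574865 (plus strand) for Sema3c. Each is written 5′ to 3′ on the strand of its gene, and capitals mark the motif matches described after them.
Pi16: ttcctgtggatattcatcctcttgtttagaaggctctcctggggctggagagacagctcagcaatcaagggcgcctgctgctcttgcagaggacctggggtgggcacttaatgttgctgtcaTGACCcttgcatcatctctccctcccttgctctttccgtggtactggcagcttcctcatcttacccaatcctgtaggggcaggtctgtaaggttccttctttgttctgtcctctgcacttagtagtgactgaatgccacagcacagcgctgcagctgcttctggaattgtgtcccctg
Cd55: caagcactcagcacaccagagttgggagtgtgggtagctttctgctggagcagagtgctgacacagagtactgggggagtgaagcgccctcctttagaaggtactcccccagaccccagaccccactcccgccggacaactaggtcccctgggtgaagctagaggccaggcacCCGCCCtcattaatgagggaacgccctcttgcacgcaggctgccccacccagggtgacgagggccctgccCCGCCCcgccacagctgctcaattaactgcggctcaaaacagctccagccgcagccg
Efemp1: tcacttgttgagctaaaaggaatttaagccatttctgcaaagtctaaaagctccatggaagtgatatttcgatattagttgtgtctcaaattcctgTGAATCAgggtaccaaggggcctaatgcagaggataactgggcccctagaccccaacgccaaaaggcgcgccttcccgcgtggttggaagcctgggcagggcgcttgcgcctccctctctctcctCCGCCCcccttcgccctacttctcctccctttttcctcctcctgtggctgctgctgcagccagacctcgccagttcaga
Sema3c: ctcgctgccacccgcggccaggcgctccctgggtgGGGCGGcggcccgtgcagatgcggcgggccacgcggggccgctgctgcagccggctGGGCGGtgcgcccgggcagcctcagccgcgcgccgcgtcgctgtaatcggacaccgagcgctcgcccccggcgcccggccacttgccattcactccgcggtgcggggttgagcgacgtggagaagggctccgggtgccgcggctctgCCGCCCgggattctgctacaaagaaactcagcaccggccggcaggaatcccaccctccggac

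Each promoter was searched on both strands for 5 motifs. The full estrogen response element (GGTCA, any 3 bases, then its reverse complement) was in 0 of the 5 promoters, and in 0.0700% of all 32851 RefSeq mouse promoters of this length. Its single arm GGTCA, in 40.5% of all promoters, was matched in Pi16 alone, as the reverse complement in capitals. The GC box GGGCGG, in 35.7% of all promoters, was in Cd55, Efemp1 and Sema3c, in either orientation. The AP-1 site TGANTCA, in 7.81% of all promoters, was in Efemp1 alone, and the TATA box TATAAA, in 13.6%, was in Dpp4 alone. A match is a run of letters in a window and shows no binding.

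The 6 libraries held 64958237 to 111826460 UMIs, more in each Aromhum than in each WT mouse (WT 64958237 to 72876541, Aromhum 92652109 to 111826460). Of 63647 deposited barcodes, 59227 had at least 200 genes and 1000 UMIs and were used. Between 120 and 189 barcode sequences of a library also occurred in another library. The share of used barcodes with more than 5% mitochondrial UMIs was 36.0%, 64.7% and 39.0% in WT and 29.4%, 29.4% and 26.6% in Aromhum mice, so it was higher in every WT library. CYP19A1 had 0 UMIs in each WT library and 770 to 797 in each Aromhum library. One Aromhum library stood apart: replicate 3 held 5 Mmp3hi hernia-associated fibroblasts (HAFs), where Aromhum replicates 1 and 2 held 673 and 1166. Several of the results below, but not all, are also given without it.

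Cells were named by marker lists that contain none of the 6 members, and the members took no part in the clustering. Fibroblast-like cells, with 8 of 8 fibroblast markers, numbered 22614 (WT 3542, 2425 and 1584, Aromhum 4854, 6750 and 3459) and fell into 21 clusters. Clusters 3, 4, 12 and 13 carried all 12 markers of the Dmknhi fibroblast, a subtype marked by the epidermal genes Dmkn, Sbsn and Krtdap, and held 4300 cells. These 12 markers are among the leading genes that the study lists for its own Dmknhi cluster, found in these same data. That list also holds Dpp4, Cd55, Efemp1, Sema3c and Anxa3, so high levels of these members in Dmknhi cells are not an independent result. Cluster 3 held 4, 0 and 0 WT cells and 501, 1116 and 15 Aromhum cells. Of the 12 markers, only Pcsk6 was among the 10 leading genes of cluster 4. The study calls its Dmknhi cluster small, with nearly as many WT as Aromhum cells, so the clusters named here need not match it. Clusters 0 and 6 (5530 cells) were fibro-adipogenic progenitors (FAPs), the multipotent resident fibroblasts of muscle. The others were Esr1hi HAFs, Mmp3hi HAFs, tenocyte progenitors, tenocytes, or unnamed. The study's own lists hold Pi16 for the cluster that it concluded was likely a mix of FAPs. They hold Cd55 and Efemp1 for its Mmp3hi HAFs as well. Mesothelial cells, the lining of the abdominal wall, numbered 2685 (WT 146, 165 and 67, Aromhum 648, 992 and 667), with 10 of 10 mesothelial markers detected.

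Of the named cell groups, Dmknhi fibroblasts had the highest mean of 5 members and the next highest of Dpp4, and mesothelial cells were among the 2 highest for Dpp4, Efemp1, Sema3c and Anxa3. For Efemp1 this order holds for the mean over both genotypes and not in WT mice. Levels are given as CPM, the gene's UMIs scaled to a common total of UMIs over the cells summed in a mouse, as mean ± SD over the 6 mice unless a smaller number is named, and they are a description with no test. Means of Mmp3hi HAFs are over WT replicate 1 and Aromhum replicates 1 and 2. Those of Esr1hi HAFs are over WT replicate 1 and every Aromhum mouse. The places of these groups beside the others therefore mix cell group and genotype. The UMIs are counted at transcript 3′ ends, so levels were compared between cell groups and not between genes.

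Dpp4 was at 343 ± 118 CPM in mesothelial cells and at 218 ± 14.2 CPM in Dmknhi fibroblasts. The mesothelial values were 387, 466 and 459.9 in WT and 205, 201 and 341 in Aromhum mice, and the Dmknhi values were 234, 209 and 209 in WT and 200.5, 223 and 235 in Aromhum mice, so the 2 highest groups overlapped. Both lay well above the next named groups, Mmp3hi HAFs at 49.2 ± 3.2 CPM (3 mice), tenocytes at 35.5 ± 11.5, FAPs at 32.4 ± 8.7 and tenocyte progenitors at 31.5 ± 7.7, of which the last 3 did not differ beyond their spread, and Esr1hi HAFs at 18.6 ± 12.4 (4 mice). Dpp4 was 2.1 ± 0.7 CPM in cluster 7, the Esr1hi HAFs led by Nppc, Wfdc2 and Pnoc (3 Aromhum mice). It stood at 110 ± 58.2 CPM (5 mice) in the unnamed cluster 8, led by Tspan8, Epyc and the stem cell gene Lgr5.

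Pi16 was at 2727 ± 570 CPM in Dmknhi fibroblasts and at 50.5 ± 31.4 CPM in mesothelial cells, so of the groups highest for Dpp4, 1 was the highest for Pi16 and the other lay below every named fibroblast subtype. Its Dmknhi values were 2494, 2025 and 2803 in WT and 3618, 3084 and 2335 in Aromhum mice. Below them came Mmp3hi HAFs at 1113 ± 710 CPM (3 mice), FAPs at 813 ± 378, Esr1hi HAFs at 729 ± 60.6 (4 mice) and tenocyte progenitors at 479 ± 347, each overlapping the next. Tenocytes had 138 ± 66.1 CPM. The unnamed cluster 8 reached 1841.5 ± 750 CPM (5 mice).

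Cd55 was at 890.4 ± 126 CPM in Dmknhi fibroblasts, with 804, 733 and 812 in WT and 1048, 1011 and 935 in Aromhum mice. FAPs followed at 213 ± 56.8 CPM, then Mmp3hi HAFs at 139 ± 42.9 (3 mice), Esr1hi HAFs at 111 ± 34.2 (4 mice) and mesothelial cells at 101 ± 26.4, neighbors whose spreads overlapped. The lowest named fibroblasts were tenocytes at 20.2 ± 9.2 CPM.

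Efemp1 was at 1039.5 ± 121 CPM in Dmknhi fibroblasts and 927 ± 523 CPM in mesothelial cells, where the 3 Aromhum mice (325 to 728) lay below the 3 WT mice (1213 to 1465). The Dmknhi values were 1074, 1019.6 and 1012 in WT and 1142, 1162 and 827 in Aromhum mice, so mesothelial cells were the higher group in each WT mouse and Dmknhi fibroblasts in each Aromhum mouse. Mmp3hi HAFs had 274 ± 19.8 CPM (3 mice), FAPs 158 ± 20.9, Esr1hi HAFs 28.5 ± 10.9 (4 mice), tenocyte progenitors 18.5 ± 5.2 and tenocytes 17.3 ± 16.3, the last 3 not differing beyond their spread. Efemp1 was also at 414 ± 163 CPM in the small cluster 19, with Dlk1 and Apod among its leading genes.

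Sema3c was at 577 ± 72.9 CPM in Dmknhi fibroblasts and 219 ± 81.8 CPM in mesothelial cells. Every other named fibroblast subtype lay between 80.6 ± 46.6 (Esr1hi HAFs, 4 mice) and 116 ± 29.4 CPM (tenocytes) and these did not differ beyond their spread. Within tenocytes, cluster 18, led by Wif1, Chad and Fmod, was at 257 ± 91.5 CPM.

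Anxa3 was at 844 ± 111 CPM in Dmknhi fibroblasts and 498 ± 88.1 CPM in mesothelial cells, and it was the member with the widest range of cell types. Endothelial cells were at 351 ± 74.9 CPM and smooth muscle cells and pericytes at 281.5 ± 56.8, above the remaining named fibroblast subtypes, which ran from 96.6 ± 13.8 (FAPs) to 172 ± 25.4 CPM (Mmp3hi HAFs, 3 mice).

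**Figure D1:**
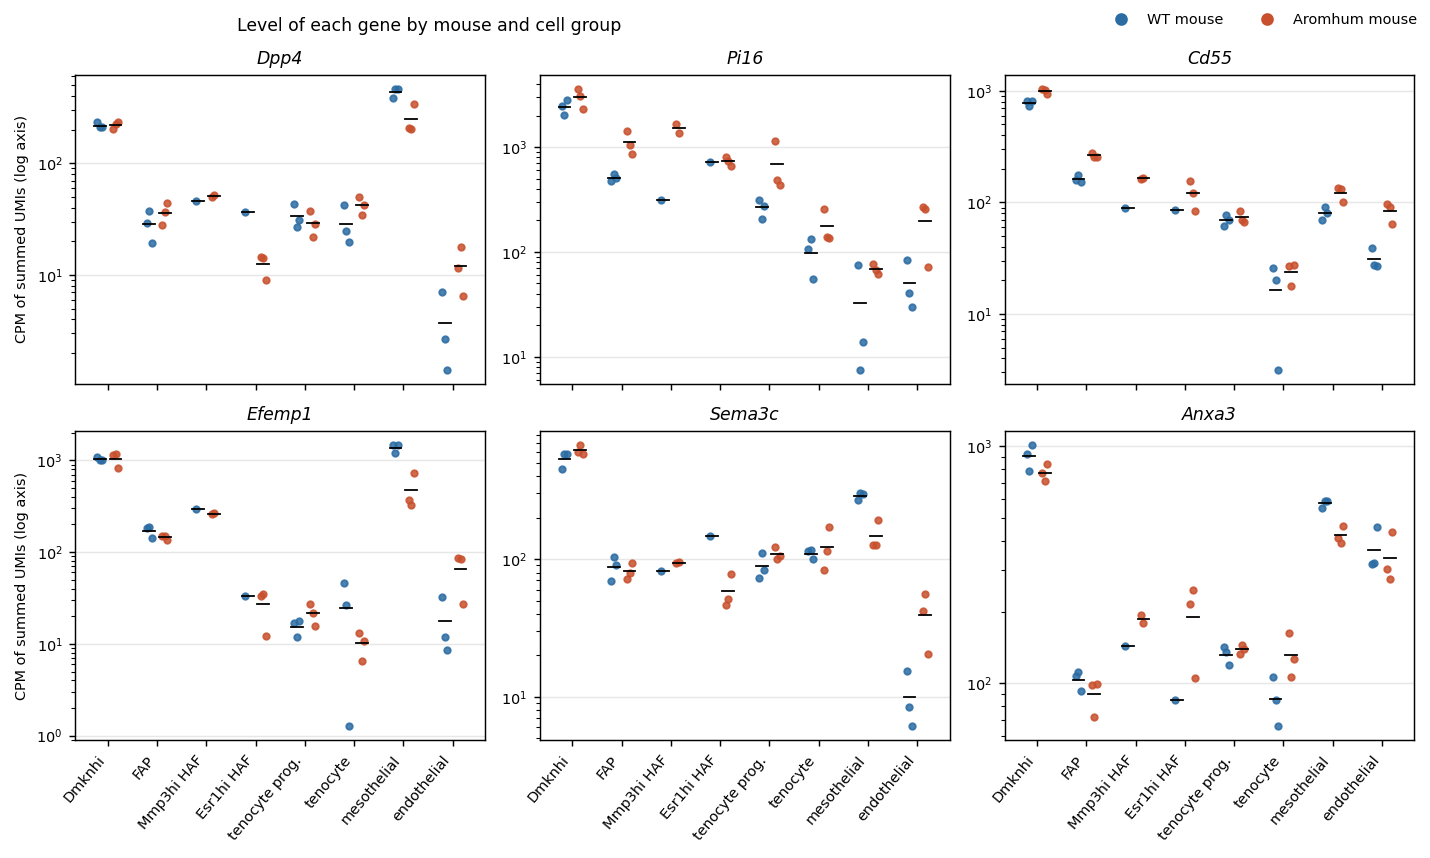
Level of each of the 6 genes in 8 cell groups. The y axis is CPM of the summed UMIs on a log axis, each point is 1 mouse (WT blue, Aromhum orange), black bars are genotype means, and mice with fewer than 10 cells of a group are left out. Dmknhi fibroblasts are high for all 6 genes, and mesothelial cells are at 343 CPM for Dpp4 and 50.5 CPM for Pi16 on average.

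The Dmknhi clusters themselves differed. Cluster 4, led by Stmn4, Uchl1 and Efhd1, had the lowest mean of the 4 for all 6 members, and Pi16 there was at 1754, 1418 and 1628 CPM in WT and 2536, 2088 and 1714 in Aromhum mice. In cluster 13, led by Dact2, Akr1c18 and Krtdap, Pi16 was at 4401, 4017 and 5169 CPM in WT and 4254, 3560.2 and 4143 in Aromhum mice. No mouse of cluster 4 reached the lowest mouse of cluster 13 for Pi16. Dpp4 was at 306 ± 62.9 CPM in cluster 13 and 187.5 ± 21.7 in cluster 4, and Anxa3 at 1342 ± 399 and 649.7 ± 79.5 CPM. Cluster 3, found almost only in Aromhum mice, had Cd55 at 1101 ± 63.0 CPM over the 3 Aromhum mice. Over both genotypes it was 949 ± 145 in cluster 13 and 835 ± 146 in cluster 4, so this comparison mixes cluster and genotype.

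Across the 21 fibroblast-like clusters, the members varied together to different degrees. On log2 of 1 plus the mean CPM, Pearson's r was 0.91 for Dpp4 with Sema3c, 0.88 for Sema3c with Anxa3 and 0.87 for Dpp4 with Anxa3, and it was 0.91 for Cd55 with Efemp1 and 0.86 for Pi16 with Cd55. It was 0.74 for Pi16 with Anxa3, 0.70 for Cd55 with Anxa3, 0.69 for Dpp4 with Cd55 and 0.66 for Pi16 with Efemp1, and the lowest was 0.46, for Efemp1 with Sema3c. These points share libraries and depth and are a description. With the mesothelial group added (22 groups), the genes most like Dpp4 were Sema3c (r = 0.89), Anxa3 (0.87) and Ston2 (0.81), and those most like Sema3c were Dpp4 (0.89), Anxa3 (0.88) and Lurap1l (0.86). Most like Pi16 were Vat1 (0.92), the microfibril gene Fbn1 (0.91) and Tspan18 (0.90). Cd55 was followed most closely by the phosphodiesterase gene Pde8a (0.96), Heg1 (0.95) and the laminin gene Lama4 (0.94), Efemp1 by Rtn4rl1 (0.88), the ribosomal gene Rpl32 (0.87) and Cmah (0.87), and Anxa3 by Zdhhc3 (0.89), Gpr1 (0.88) and Rab32 (0.88).

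Fibroblast-like cells held most UMIs of 5 members but not all. On average over the mice they held 92.9% ± 1.66 of the Pi16 UMIs, 80.7% ± 3.97 of Sema3c, 80.6% ± 8.28 of Cd55, 65.9% ± 12.3 of Efemp1, 59.5% ± 11.0 of Dpp4 and 45.6% ± 20.3 of Anxa3. Mesothelial cells held 34.1% ± 11.6 of the Dpp4 UMIs and 24.8% ± 11.4 of those of Efemp1, but 0.547% ± 0.452 of those of Pi16. Endothelial cells held 27.2% ± 15.6 of the Anxa3 UMIs.

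Whether members occurred in the same single cells was counted. For this cells were thinned to 2000 UMIs, so that depth was equal, cells under 2000 UMIs were left out, and a gene was counted as present with at least 1 UMI. That kept 3421, 2350 and 1523 fibroblast-like cells in WT and 4744, 6578 and 3395 in Aromhum mice, and 140, 160 and 64 and then 622, 970 and 656 mesothelial cells. In fibroblast-like cells with a Dpp4 UMI, 76.5% ± 11.6 also had Pi16, against 49.4% ± 12.9 of those without (SD over the 6 mice). Anxa3 was in 56.8% of cells with Dpp4 and 23.3% of those without, and Efemp1 in 55.9% and 20.5%. All 30 ordered pairs of members were higher in cells with the first gene in 6 of 6 mice. A pair and its reverse always go the same way within a mouse, so the 30 are not separate comparisons. The count was not made for pairs of other genes, and these cells mix subtypes with differing levels of the members. Within Dmknhi fibroblasts alone, where all members are high, 24 of 30 pairs were higher in all 6 mice, though the Dmknhi clusters also differed in their levels. There Cd55 was in 75.8% of cells with Pi16 and 50.7% without. Within FAPs 24 of 30 pairs were higher in all mice, and Pi16 and Efemp1 were among the exceptions, with Efemp1 in 24.1% of cells with Pi16 and 23.9% without. In mesothelial cells 0 of 30 pairs were higher in all 6 mice. Some of these shares rest on few WT cells: of those with Pi16, 0%, 33.3% and 0% had Cd55 in the WT mice.

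The share of fibroblast-like cells with at least 3 of the 6 members was 24.4%, 16.8% and 14.8% in WT and 30.7%, 34.9% and 24.3% in Aromhum mice. The highest WT mouse lay just above the lowest Aromhum mouse (18.7% ± 5.04 against 30.0% ± 5.32, exact permutation p = 0.2, 2-sided). A share in 3 mice against 3 cannot reach an exact p below 0.1. Cells with Pi16 made up 45.7%, 38.5% and 40.4% of fibroblast-like cells in WT and 67.5%, 67.9% and 53.7% in Aromhum mice, and cells with Cd55 23.9%, 22.0% and 18.5% in WT and 34.7%, 35.9% and 30.7% in Aromhum mice. For both genes every Aromhum mouse lay above every WT mouse (exact permutation p = 0.1, the lowest possible). Dpp4 was in 9.56% ± 3.02 of WT and 11.4% ± 1.97 of Aromhum cells (exact permutation p = 0.5). For Efemp1 (20.5% and 28.0%), Sema3c (21.4% and 24.8%) and Anxa3 (22.9% and 30.6%) the genotypes overlapped, each with an exact permutation p of 0.2. With 1 mouse left out the differences ran from 4.40 to 10.9 points for Efemp1 and from 2.10 to 4.75 for Sema3c. They ran from 5.61 to 10.2 for Anxa3 and from 0.708 to 3.58 for Dpp4. Without thinning, Pi16 was in 61.1% and 81.1% and Cd55 in 45.03% and 64.2% of WT and Aromhum cells.

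Beside these stand the shares in endothelial cells, of which 2142, 2705 and 2662 of 2881, 3382 and 3012 in WT and 1726, 1290 and 1805 of 2159, 1769 and 2111 in Aromhum mice had 2000 UMIs. There Pi16 was in 4.01%, 2.51% and 2.37% of WT and 10.5%, 10.5% and 5.21% of Aromhum cells, and Cd55 in 4.35% ± 0.567 and 8.60% ± 0.777. Dpp4 was in 0.230% and 1.27% on average, Efemp1 in 1.42% and 5.53% and Sema3c in 0.867% and 2.96%. All 5 were below their shares in fibroblast-like cells in every mouse, at median depths of 4262 UMIs in endothelial and 10001.5 in fibroblast-like cells before thinning. Anxa3 was in 49.9% and 46.5% of endothelial cells. Endothelial cells are no sure background for Cd55 either: they held 6.63% to 15.2% of its UMIs in WT mice, against 3.97% to 5.32% of those of Pi16, and lymphatic endothelial cells held 1.05% to 3.66%, against 0.0737% to 0.211% for Pi16.

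**Figure D2:**
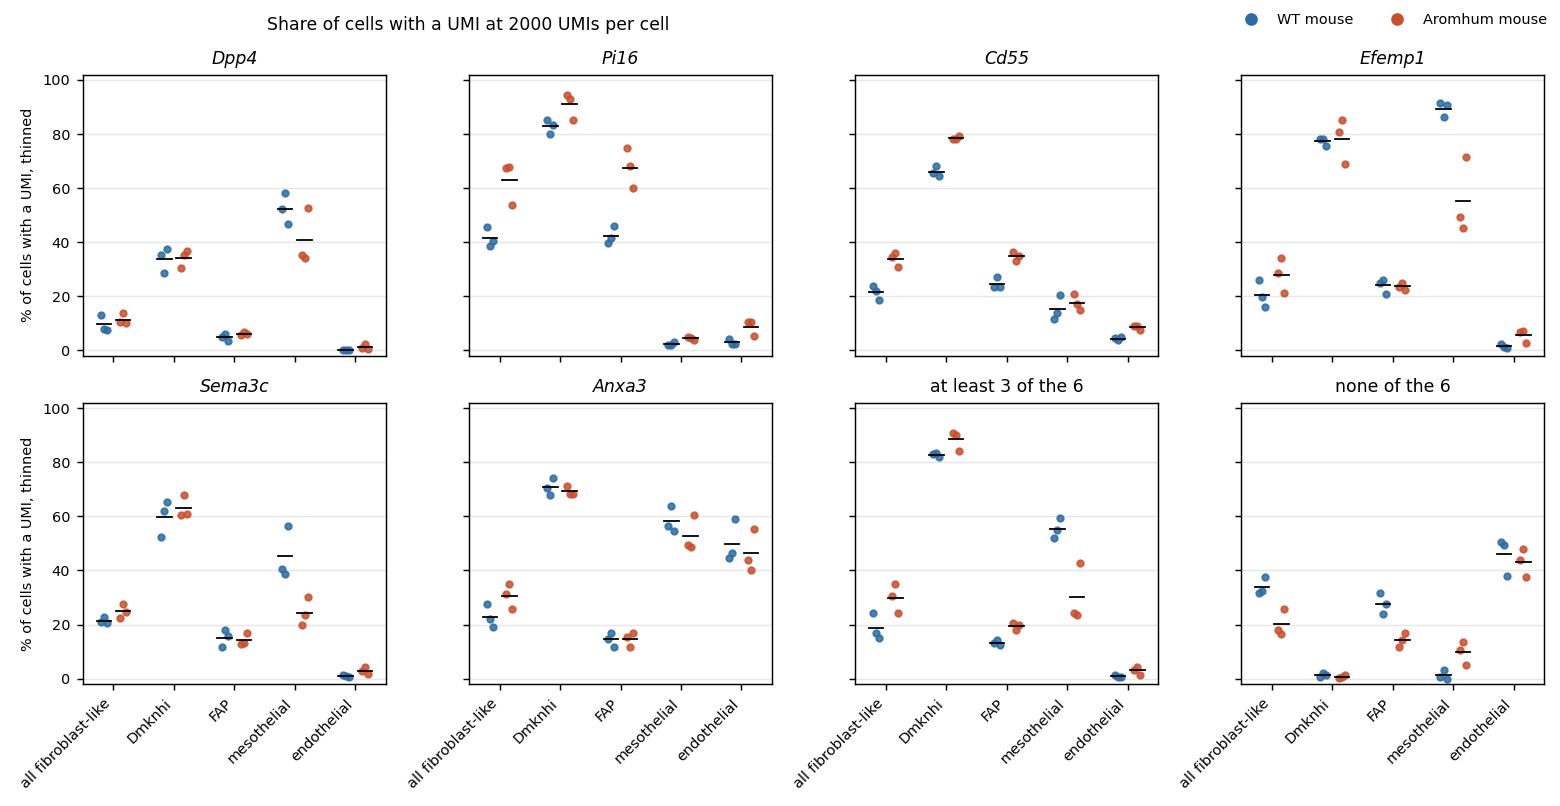
Share of cells with at least 1 UMI of each gene, with at least 3 of the 6, and with none, after thinning to 2000 UMIs. The y axis is percent of cells, each point 1 mouse (WT blue, Aromhum orange) and black bars genotype means. Pi16 in FAPs separates the genotypes, 42.5% in WT and 67.6% in Aromhum mice on average, while Dpp4 in Dmknhi fibroblasts, 33.8% and 34.2%, does not.

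Dmknhi fibroblasts made up 19.3%, 10.5% and 9.15% of fibroblast-like cells in WT and 19.4%, 25.2% and 16.6% in Aromhum mice. WT replicate 1 lay among the Aromhum mice, and the means, 12.97% ± 5.51 and 20.4% ± 4.40, gave an exact permutation p of 0.2. The difference of 7.44 points was 5.02 to 10.6 with 1 mouse left out and 12.3 within the cell limits of the study's methods. Mean shares in WT and Aromhum mice were 0.0376% and 9.10% for cluster 3, and 6.72% and 7.34% for cluster 4. They were 4.47% and 1.24% for cluster 12 and 1.74% and 2.73% for cluster 13. Cluster 3 alone differed by 9.06 points, more than the Dmknhi clusters together. Mesothelial cells made up 1.39% ± 0.440 of all cells in WT and 7.08% ± 1.19 in Aromhum mice, and fibroblast-like cells 28.1% ± 8.72 and 45.2% ± 5.87, each without overlap (exact permutation p = 0.1).

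In the summed fibroblast-like cells, none of the 6 members passed the test between genotypes. UMIs were summed per mouse and tested by quasi-likelihood in edgeR. The p-values were adjusted after Benjamini and Hochberg over all genes tested, and the threshold was 0.05. From here on CPM values of single genes are normalized by edgeR (TMM), while summed marker levels are plain CPM. The sums of fibroblast-like cells mix subtypes in proportions that differ between mice. Markers of other cell types in them also differed without overlap: the 7 macrophage markers summed to 10.2 to 11.6 CPM in WT and 14.9 to 35.9 in Aromhum mice, the 7 glial markers to 17.0 to 36.2 and 11.2 to 13.01, and the 6 muscle stem cell markers to 10.3 to 13.8 and 6.33 to 8.88. Their part in the members' values was not tested. Pi16 was at 926, 608 and 687 normalized CPM in WT and 1544, 1479.9 and 911 in Aromhum mice, so 1 Aromhum mouse lay just under the highest WT mouse. The log2 fold change was 0.83 ± 0.25 (SE, adjusted p = 0.0666). Cd55 was at 244, 173 and 163 in WT and 318, 324 and 258 in Aromhum mice, without overlap, and the log2 fold change was 0.63 ± 0.18 (edgeR adjusted p = 0.0587). Dpp4 was level, at 63.7 ± 22.0 in WT and 62.7 ± 6.1 in Aromhum mice (edgeR adjusted p = 0.951). Sema3c, Efemp1 and Anxa3 differed by 0.16, 0.21 and 0.26 on the log2 scale (edgeR adjusted p = 0.372, 0.627 and 0.40). With 1 mouse left out these ran from 0.052 to 0.22, from 0.025 to 0.50 and from 0.15 to 0.48. Within the cell limits of the study's methods the 6 log2 fold changes were 1.35 for Pi16, 1.35 for Cd55, 0.64 for Dpp4, 0.92 for Sema3c, 1.05 for Efemp1 and 0.65 for Anxa3 (edgeR adjusted p = 0.188 to 0.541).

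Against the 0 of 6 members called here, 1811 of 13960 genes tested were called, 13% (4663 at an unadjusted p under 0.05). That count fell to between 4 and 121 when any 1 mouse other than Aromhum replicate 3 was left out, and to 1 within the cell limits. Of the 6, Pi16 and Cd55 were under an unadjusted p of 0.05 in this fit. Groups did not overlap for 1 of 6 members and for 38.7% of all genes. DESeq2 on the same sums called 2851 genes and 2 members, Pi16 (adjusted p = 0.009) and Cd55 (0.011). Without Aromhum replicate 3, edgeR called 4140 of 14023 genes and the same 2 members, with log2 fold changes of 1.01 and 0.71 (adjusted p = 0.010 and 0.026).

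Within FAPs, Pi16 and Cd55 were higher in Aromhum mice and passed the test, while the other 4 members did not. FAP clusters 0 and 6 were summed for this after the data had been seen. Pi16 was at 504, 525 and 509 normalized CPM in WT and 1472, 1045 and 839.5 in Aromhum mice. Every Aromhum mouse was well above the 3 WT mice, which lay between 504 and 525, and the log2 fold change was 1.13 ± 0.19 (edgeR adjusted p = 0.0149). Cd55 was at 167, 167 and 154 in WT and 286, 259 and 249 in Aromhum mice, again with no overlap, for a log2 fold change of 0.70 ± 0.11 (edgeR adjusted p = 0.0127). Of the other 4, Dpp4 differed by 0.33 ± 0.21 on the log2 scale (adjusted p = 0.423), Efemp1 by -0.24 ± 0.13 (0.345), Sema3c by -0.11 ± 0.14 (0.706) and Anxa3 by -0.21 ± 0.14 (0.452), all by edgeR. In FAPs 389 of 11200 genes were called, 3.47%, and 25% of genes did not overlap, against 2 of 6 members in either count. The Pi16 call was lost (edgeR adjusted p = 0.058 to 0.060) without WT replicate 2, WT replicate 3 or Aromhum replicate 2, and the Cd55 call (0.056 to 0.068) without WT replicate 3, Aromhum replicate 1 or Aromhum replicate 2. Log2 fold changes in these fits were 1.11 to 1.17 for Pi16 and 0.64 to 0.72 for Cd55. Those of the other 4 moved more with 1 mouse left out, from 0.11 to 0.51 for Dpp4, -0.36 to -0.15 for Efemp1, -0.22 to -0.014 for Sema3c and -0.30 to -0.077 for Anxa3. With barcodes over 5% mitochondrial UMIs left out, Pi16 differed by 1.12 (edgeR adjusted p = 0.0171) and Cd55 by 0.70 (0.0135).

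Cluster by cluster, 10 fibroblast-like clusters had at least 20 cells in every mouse, and 5 of 58 tests of a member were called. The count was 9 without Aromhum replicate 3 and 1 without Aromhum replicate 2. Within the cell limits of the study's methods it was 1, and clusters with fewer than 10 cells in a mouse were not fitted there. The 5 calls were Pi16 and Cd55 in both FAP clusters and Cd55 in the unnamed cluster 2, led by Gas1 and Scg5. In cluster 0 Pi16 was at 418, 507 and 496 in WT and 1397, 971 and 782 in Aromhum mice (log2 fold change 1.15 ± 0.20, edgeR adjusted p = 0.0159), and Cd55 differed by 0.69 ± 0.11 (0.0130). In cluster 6 the differences were 0.94 ± 0.21 for Pi16 (edgeR adjusted p = 0.0350) and 0.77 ± 0.14 for Cd55 (0.0081). Cd55 in cluster 2 was low in all mice, 37.7, 28.2 and 26.0 in WT and 90.9, 63.0 and 60.1 in Aromhum mice (1.17 ± 0.20, edgeR adjusted p = 0.0194). Tenocyte progenitors (cluster 5) had Pi16 at 323, 203 and 278 in WT and 1186, 482 and 440.2 in Aromhum mice, with 1 mouse far above the others and no call (1.38 ± 0.32, edgeR adjusted p = 0.0568).

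Read against all genes, the share called was 4.5% in cluster 0, 1.61% in cluster 6, 1.38% in cluster 2, 1.36% in cluster 5, 3.14% in cluster 4, 0.91% in cluster 15 and 0.0289% in cluster 11. It was 0% in clusters 12, 13 and 14, where 236, 758 and 259 genes had an unadjusted p under 0.05. Pi16 was higher in Aromhum mice in 9 of the 10 clusters and Cd55 in 9, though most of these differences did not pass the test. The clusters come from the same mice, so their directions are not independent, and this count was not made for all genes. Dpp4, Efemp1, Sema3c and Anxa3 had 0 calls in any cluster. Cluster 6 held the nearest for Dpp4, 0.68 ± 0.19 (edgeR adjusted p = 0.0943).

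Within Dmknhi fibroblasts, none of the 6 was called. Cd55 was at 854, 702 and 799 in WT and 1070.5, 1074 and 869 in Aromhum mice, without overlap (log2 fold change 0.36 ± 0.16, edgeR adjusted p = 0.303). Pi16 was at 2649, 1941 and 2759 in WT and 3697, 3277 and 2169.8 in Aromhum mice, with the Aromhum mice on both sides of 2 WT mice (0.32 ± 0.24, edgeR adjusted p = 0.557). Dpp4 differed by 0.01 ± 0.14, Efemp1 by 0.03 ± 0.20, Sema3c by 0.23 ± 0.16 and Anxa3 by -0.23 ± 0.16. With 1 mouse left out Pi16 ran from 0.16 without Aromhum replicate 1 to 0.51 without Aromhum replicate 3, Sema3c from 0.12 to 0.32 and Anxa3 from -0.35 to -0.16. The test called 110 of 11015 genes, 0.999% (1899 at an unadjusted p under 0.05, under which 0 of 6 members fell), and 22.1% of genes did not overlap, against 1 of 6 members. The Dmknhi sums of Aromhum replicates 1 and 2 hold mostly cluster 3 cells, which the WT mice nearly lack. The summed level of the 8 fibroblast markers in Dmknhi cells ran from 26730 to 31770 CPM in WT and from 37951 to 58801 in Aromhum mice. The 10 mesothelial markers summed to 3.57 to 8.14 CPM in WT and 9.03 to 17.0 in Aromhum mice, the 7 glial markers to 17.5 to 53.5 and 6.58 to 14.7, and the 6 lymphatic endothelial markers to 8.49 to 12.9 and 3.40 to 7.90. The part of these in the members' values was not tested.

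**Figure D3:**
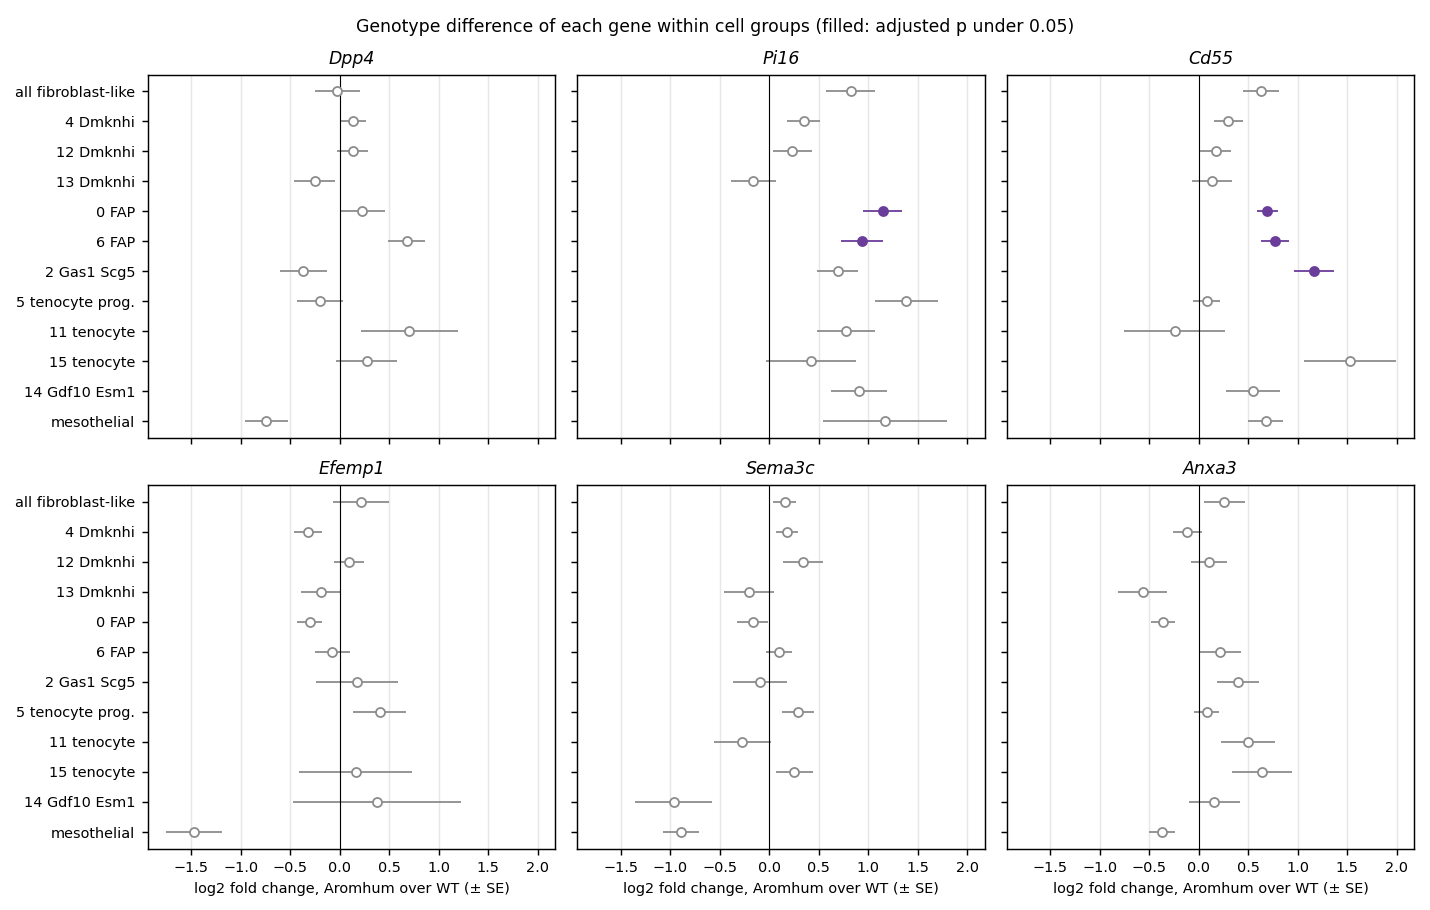
Difference between genotypes for each gene in all fibroblast-like cells, in the 10 clusters tested and in mesothelial cells. The x axis is the log2 fold change of Aromhum over WT with its SE, and filled points passed an adjusted p of 0.05. Filled points are Pi16 and Cd55 in clusters 0 and 6 and Cd55 in cluster 2, with log2 fold changes of 0.69 to 1.17.

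Members also differed between genotypes in other cell types. Pi16, Cd55, Dpp4 and Anxa3 differed in the same direction in endothelial cells as in FAPs. Sema3c and Efemp1 did not, but in FAPs only Pi16 and Cd55 were called. In endothelial cells edgeR called Pi16 (log2 fold change 1.89, adjusted p = 0.042), Cd55 (1.36, 0.009) and Sema3c (1.91, 0.022), among 16.4% of genes called there. Efemp1 differed by 1.84 (edgeR adjusted p = 0.054), Dpp4 by 1.63 (0.077) and Anxa3 by -0.18 (0.602). The summed level of the 8 fibroblast markers in endothelial cells was 1719 to 3469 CPM in WT and 3819 to 8448 in Aromhum mice, all 8 detected. Smooth muscle cells and pericytes had 1 member called, Cd55 (1.07, edgeR adjusted p = 0.014), among 1.76% of genes, with the same markers at 1085 to 1904 CPM in WT and 2347 to 3751 in Aromhum mice. In FAPs themselves, the 7 endothelial markers summed to 34.3 to 58.2 CPM in WT and 21.9 to 34.8 in Aromhum mice, the 7 macrophage markers to 7.43 to 9.12 and 10.8 to 25.8, and the 10 mesothelial markers to 1.67 to 2.92 and 8.40 to 12.4. There the 8 smooth muscle and pericyte markers summed to 69.1 to 91.1 CPM in WT and 46.3 to 61.5 in Aromhum mice, the 7 glial markers to 16.0 to 25.1 and 4.69 to 11.4, and the 6 T cell markers to 0.934 to 2.04 and 2.27 to 5.07, each without overlap. The part of these in the members' values was not tested.

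In mesothelial cells none of the 6 members passed the test, and 4 had lower and 2 higher means in Aromhum mice. Efemp1 was at 1428, 1215 and 1389 normalized CPM in WT and 380.1, 342 and 735 in Aromhum mice. The lowest WT mouse lay above the highest Aromhum mouse, which was replicate 3, and the log2 fold change was -1.47 ± 0.28 (edgeR adjusted p = 0.0631). Sema3c was at 264, 303 and 283 in WT and 130.4, 133 and 193 in Aromhum mice (-0.89 ± 0.18, edgeR adjusted p = 0.0674). Dpp4 was at 377, 467 and 438 in WT and 210.5, 212 and 344.5 in Aromhum mice (-0.74 ± 0.22, edgeR adjusted p = 0.120). In all 3 genes, replicate 3 was the Aromhum mouse nearest to WT. Anxa3 was at 561 ± 26.8 in WT and 433 ± 28.5 in Aromhum mice (-0.37 ± 0.13, edgeR adjusted p = 0.166). Cd55 was higher, at 67.8, 90.4 and 76.5 in WT and 137, 138 and 101.8 in Aromhum mice (0.68 ± 0.18, edgeR adjusted p = 0.0985).

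Pi16 in mesothelial cells rested on 112, 17 and 13 UMIs in WT and 650, 905 and 628 in Aromhum mice. It was at 73.7, 7.5 and 13.3 normalized CPM in WT and 79.4, 71.1 and 61.9 in Aromhum mice, so WT replicate 1 sat among the Aromhum mice (1.17 ± 0.63, edgeR adjusted p = 0.330). With cells marked as doublets left out the difference was 0.14 (edgeR adjusted p = 0.953), and without WT replicate 1 it was 2.89 (0.067). Of mesothelial cells, 5.40% were marked as doublets.

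The test called 26 of 11713 genes in mesothelial cells, 0.222% (2387 at an unadjusted p under 0.05, among them 5 of the 6 members), and DESeq2 called 586 genes and 5 members, all but Pi16. Groups did not overlap for 5 of 6 members, 4 lower and 1 higher in Aromhum mice, and for 25.3% of all genes. Without Aromhum replicate 3, edgeR called 1375 of 10470 genes and 4 members, Efemp1 (log2 fold change -1.90, adjusted p = 0.001), Sema3c (-1.11, 0.004), Dpp4 (-1.02, 0.006) and Cd55 (0.80, 0.016). Mesothelial cells of WT mice were few, 67 to 165 per mouse. Their 10 mesothelial markers summed to 8567 to 11694 CPM in WT and 7069.8 to 10515 in Aromhum mice, the fibroblast markers to 16488 to 17785 and 19698 to 20531, and the 8 smooth muscle markers to 190 to 922 and 500.3 to 1528. The part of these in the members' values was not tested.

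At 2000 UMIs per cell, Efemp1 was in 91.4%, 86.2% and 90.6% of WT mesothelial cells and in 49.2%, 45.2% and 71.3% of Aromhum cells, and Sema3c in 40.7%, 38.8% and 56.2% and in 19.8%, 23.4% and 30.0%. Neither overlapped (exact permutation p = 0.1 each). In endothelial cells of the same mice Efemp1 was in at most 2.29% of WT and 6.98% of Aromhum cells and Sema3c in at most 1.26% and 4.42%, higher in every Aromhum mouse. Dpp4, in 52.4% ± 5.63 of WT and 40.7% ± 10.3 of Aromhum cells, did overlap (exact permutation p = 0.3). Mesothelial cells with at least 3 members were 55.5% ± 3.64 in WT and 30.2% ± 10.8 in Aromhum mice.

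Whether the genotype difference itself differed between mesothelial and fibroblast-like cells was tested as an interaction, with the mouse as a term. Sema3c passed, with a difference of -1.03 ± 0.20 on the log2 scale (edgeR adjusted p = 0.0450, and 0.0450 by limma voom). Its mesothelial log2 fold change was -0.89 and its fibroblast-like one 0.16. Efemp1 had the largest difference of the 6, -1.75 ± 0.46, and did not pass (edgeR adjusted p = 0.0882). Dpp4 differed by -0.77 ± 0.32 (0.220), Anxa3 by -0.62 ± 0.24 (0.193), Pi16 by 0.78 ± 0.54 (0.456) and Cd55 by 0.06 ± 0.22 (0.923), all by edgeR. The Pi16 value was 0.078 with doublets left out, 0.20 without WT replicate 2 and 1.90 without WT replicate 1. One of 6 members was called here, against 1.58% of 13865 genes. The Sema3c call did not hold with doublets left out (edgeR adjusted p = 0.054) or without any 1 of the 3 WT mice, Aromhum replicate 1 or Aromhum replicate 2 (0.106 to 0.176), and without Aromhum replicate 3 it was at 0.002. Within the cell limits of the methods Sema3c was at -1.89 (edgeR adjusted p = 0.0038) and Efemp1 at -2.47 (0.0047), but WT replicates 2 and 3 then had 18 and 8 mesothelial cells, under the minimum of 20 set for the main tests of a cell group.

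**Figure D4:**
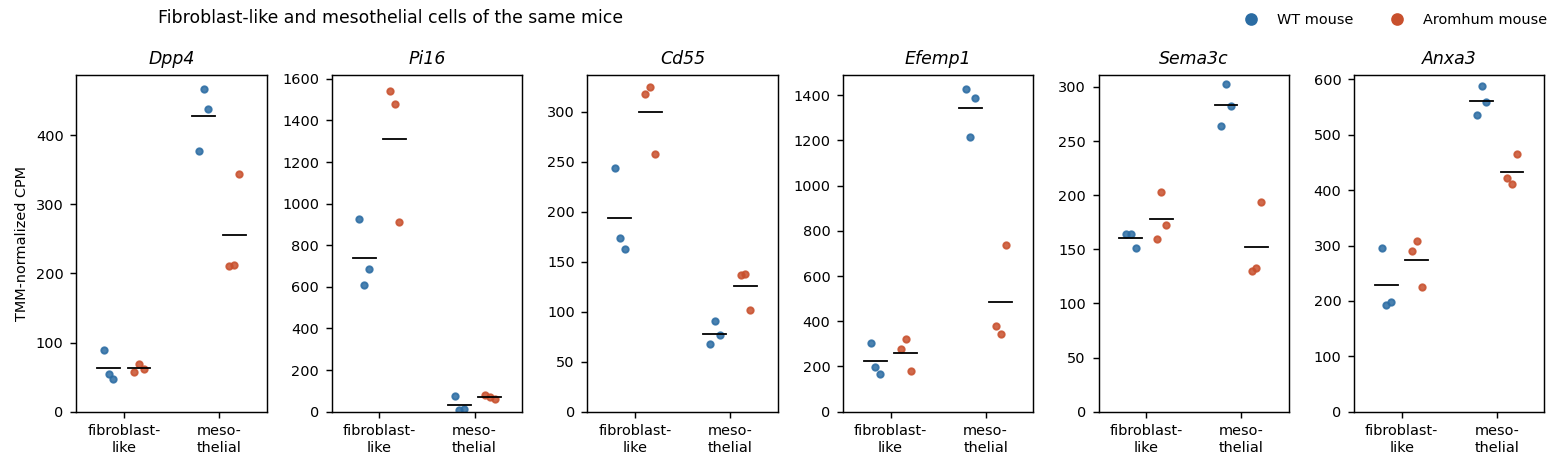
Normalized CPM (TMM) of each gene in the fibroblast-like and the mesothelial cells of the same 6 mice. The y axis starts at 0 in each panel, each point is 1 mouse (WT blue, Aromhum orange) and black bars are genotype means. Efemp1 in mesothelial cells is at 1215 to 1428 in WT and 342 to 735 in Aromhum mice, while Pi16 is low there in every mouse.

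Companion genes of adventitial fibroblasts were counted beside the members. The list held 35 genes, 7 of which also served to name the Dmknhi cells, and all were tested. In fibroblast-like cells 3 rose and 2 fell, a share near the 13% called of all genes, and the median log2 fold change was 0.02, against 0.01 over all genes. Those that rose were Fbn1 (0.81 ± 0.14), which builds microfibrils, the elastic fiber gene Emilin2 (0.70 ± 0.13) and Cd248 (0.56 ± 0.11), a stromal surface glycoprotein. Smpd3 (-2.13 ± 0.49), a sphingomyelinase, and Pcolce2 (-1.02 ± 0.19), an enhancer of procollagen processing, fell.

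Within FAPs, where 3.47% of all genes were called, 4 of 32 companions tested were, Sbsn (1.41 ± 0.30), Fbn1 (0.69 ± 0.16), Emilin2 (0.49 ± 0.11) and Pcolce2 (-0.85 ± 0.18). In endothelial cells 12 of 35 rose and 1 fell (median 0.93), where 16.4% of all genes were called. In smooth muscle cells and pericytes 6 of 30 rose (median 0.69), where 1.76% were called. Whether these and the FAP calls share a source was not tested. In Dmknhi fibroblasts 0 of 35 were called by edgeR, against 0.999% of all genes, and the nearest were Smpd3 (-2.55, adjusted p = 0.0526) and Pcolce2 (-0.76, 0.0642). In mesothelial cells also 0 of 35 were called by edgeR, against 0.222% of all genes, the nearest being Procr (1.40, adjusted p = 0.0519) and the protease inhibitor gene Timp2 (-0.74, 0.0872), and the median was 0.49 against -0.0013 over all genes.

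The list of the parenchymal fibroblast kind held 19 genes. In fibroblast-like cells 2 rose and 9 fell, where 13% of all genes were called, with a median log2 fold change of -0.49, against 0.01 over all genes. The median was -0.19 in FAPs, 0.35 in Dmknhi fibroblasts and 0.23 in mesothelial cells, so the direction was not shared by all cell groups. The largest falls were in Fmo2 (-2.26 ± 0.45), Vit (-1.65 ± 0.25), Penk (-1.55 ± 0.14), which encodes the precursor of enkephalins, and Gdf10 (-1.48 ± 0.22), while the chemokine gene Cxcl14 (1.03 ± 0.26) and Ggt5 (1.01 ± 0.26) rose. Within FAPs, where 3.47% of all genes were called, Fmo2 (-1.74 ± 0.37), Gdf10 (-1.30 ± 0.14), Penk (-1.07 ± 0.16) and the tissue factor gene F3 (-0.77 ± 0.12) fell and Cxcl14 (0.85 ± 0.17) rose. F3 alone was called in Dmknhi fibroblasts (-1.05 ± 0.15), against 0.999% of all genes. In mesothelial cells 0 of 18 tested were called by edgeR, against 0.222% of all genes, the nearest being Lpl (1.83, adjusted p = 0.0549) and F3 (1.95, 0.0810).

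Relatives and partners of each member were read the same way in fibroblast-like cells, again beside the 13% called of all genes. These lists are short, so a share of their members says little. Of 4 relatives of Pi16 tested, Glipr2 (0.82 ± 0.11, edgeR adjusted p = 0.0186) and Crispld2 (0.71 ± 0.12, 0.0221) rose and Crispld1 (-1.30 ± 0.24, 0.0261) fell, and Glipr2 also rose in FAPs (0.50 ± 0.11). Of the 7 relatives and partners of Efemp1, Efemp2 (1.06 ± 0.25) and Fbln7 (0.89 ± 0.19) rose and Fbln1 (-0.83 ± 0.16) fell. Within FAPs Efemp2 rose (0.66 ± 0.15) and Timp3 (-0.83 ± 0.13) and Fbln5 (-0.73 ± 0.12) fell, and within Dmknhi fibroblasts Fbln7 rose (2.09 ± 0.34). Of 8 annexins, Anxa2 rose (0.55 ± 0.13), and Anxa8 (-1.57 ± 0.20) and Anxa4 (-0.39 ± 0.10) fell. Anxa8 also fell in Dmknhi fibroblasts (-1.91 ± 0.29).

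Lists around the other members had 0 calls by edgeR in fibroblast-like cells. For Dpp4 (7 peptidases, substrates and binding partners) the nearest were Dpp7 (-0.37, adjusted p = 0.0737) and Dpp8 (0.26, 0.105). Around Cd55 (7 complement genes and ligands) the nearest was C4b (2.57, adjusted p = 0.0892). For the 11 receptors and relatives of Sema3c they were Sema3g (1.92, adjusted p = 0.0552) and Plxna2 (-0.58, 0.0603). In Dmknhi fibroblasts, where 0.999% of all genes were called, Sema3e fell (-1.32 ± 0.21, edgeR adjusted p = 0.0361). In mesothelial cells, where 0.222% of all genes were called, C4b rose (1.91 ± 0.24, edgeR adjusted p = 0.0378), the complement component that Cd55 acts upon once it is part of a convertase, and Sema3a (-1.23 ± 0.18, 0.0475), a semaphorin that shares neuropilin receptors with Sema3c, fell. The nearest around Efemp1 there were Fbln1 (-0.91, edgeR adjusted p = 0.0631) and Efemp2 (0.80, 0.0667), and 0 genes of the Dpp4, Pi16, Efemp1 and Anxa3 lists were called, of which little can be read at that share. The nearest of these were Dpp8 (-0.46, edgeR adjusted p = 0.157) and Dpp7 (0.49, 0.243), Glipr2 (1.87, 0.143) and Crispld2 (-0.20, 0.720), and Anxa11 (-0.54, 0.188) and Anxa1 (0.34, 0.307).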

How the data were processed

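Single cells of the LAM of 3 WT and 3 Aromhum mice were captured with 10x 3′ chemistry, and per the labels and methods the authors aligned reads with Cell Ranger 3.0.2 to mm10 with human CYP19A1 added. The deposited table holds raw UMI counts, not normalized, of 16494 genes in 63647 barcodes, all whole numbers. The upper limit of 2500 genes and the 5% mitochondrial limit of the methods leave 18852 barcodes and few mesothelial cells, so they were an alternative, and every barcode with at least 200 genes and 1000 UMIs was used. Mice were grouped by their sample titles.

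Counts were scaled to 10000 per cell, the 2000 most variable genes without the 6 members reduced to 30 principal components, and a graph of 20 neighbors clustered with Leiden (resolution 0.8, seed 1). A cluster took a name when 3 or more of its markers were each found in 10% or more of the cells and stood at 2 or more times that marker's lower quartile. It stayed unnamed if its mean standardized level over the markers was low or its 10 leading genes held more markers of another list. Fibroblast-like clusters also needed a marker of their list among their 10 leading genes. Scrublet marked 1.15% to 2.92% of cells per library as doublets. They were kept in, and left out in an alternative. In WT replicate 3, where its own threshold marked 0 cells, the median threshold of the other libraries was used. UMIs were summed per mouse and tested with edgeR 4.0.16 (TMM, filterByExpr, quasi-likelihood, Benjamini-Hochberg) in R 4.3.3, with at least 20 cells in each mouse, a minimum not applied to the interaction. For alternative cell sets this minimum was 10. The interaction also used limma 3.58.1, and DESeq2 1.42.0 was an alternative. Levels need at least 10 cells in a mouse. For shares, cells were thinned to 2000 UMIs, without those that had fewer, and compared by 2-sided exact permutation tests, whose lowest p is 0.1. Scripts were tested on simulated counts. Python 3.11.15, scanpy 1.11.5, leidenalg 0.10.2, scipy 1.17.1 and matplotlib 3.10.9 were used.

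The members and gene lists were chosen with earlier results of these data known. Of the listed genes, the text names those past an adjusted p of 0.05, up to 4 in each direction by log2 fold change, or the 2 with the smallest p where none passed. One gene that this rule would name is not reported here. Genes that helped to define clusters, such as Sbsn, are not independent of the cluster names. Summing the clusters of 1 name, the fits in endothelial and smooth muscle cells and the doublet threshold of WT replicate 3 were chosen after seeing the data. The p-values measure the spread between mice.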

Additional observations from a re-analysis of the deposited data

Results flagged for a closer look

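Sema3c differed between cell types in its response to genotype: the log2 fold change of Aromhum over WT in mesothelial cells minus that in fibroblast-like cells of the same mice was -1.03 ± 0.20, with an edgeR adjusted p of 0.0450 for the interaction. All 3 Aromhum mice were below all 3 WT mice in mesothelial cells, and the genotypes overlapped in fibroblast-like cells. The call did not hold without cells marked as doublets (edgeR adjusted p = 0.054) or in 5 of the 6 fits that left out 1 mouse (0.106 to 0.176), and held without Aromhum replicate 3 (0.002). Within the cell limits of the methods it was -1.89 (edgeR adjusted p = 0.0038), and Efemp1 was then called at -2.47 (0.0047), in a fit in which WT replicates 2 and 3 had only 18 and 8 mesothelial cells.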

How the results depend on the processing

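Counts of calls moved widely between settings, and some fold changes did too. Members called in fibroblast-like cells were 0, 2 with DESeq2, 1 with the replicate block and 0 to 2 with 1 mouse left out. In mesothelial cells they were 0, 5 with DESeq2, 1 with no filter on low counts, 2 with the block and 0 to 4 with 1 mouse left out. Over the 10 clusters, 5 calls became 11 with no filter, 1 within the cell limits of the methods and 1 to 9 with 1 mouse left out. The interaction's 1 call became 2 within those limits, 0 without doublets and 0 to 3 with 1 mouse left out. Genes called in fibroblast-like cells, 1811, became 2851 with DESeq2, 1 within the limits and 4 to 4140. The 26 in mesothelial cells became 586 with DESeq2, 134 with no filter, 443 with the block, 54 with the mitochondrial limit alone, 45 without doublets and 0 to 1375. The 389 in FAPs became 620 with no filter, 862 with the block, 84 within the limits, 119 at Leiden resolution 1.2 and 38 to 950. At resolution 1.2 only 1345 cells kept the FAP name, against 5530 in the main setting. The 110 in Dmknhi fibroblasts became 432 with DESeq2, 252 with no filter, 254 with the block, 4 within the limits, 0 at resolution 1.2 and 0 to 1092. The interaction's 219 became 78 within the limits, 140 without doublets and 0 to 1735. The highest of these counts of genes with 1 mouse left out all came without Aromhum replicate 3. The cause was not tested.

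Directions turned only for differences that were not called. Dpp4 in fibroblast-like cells was 0.026 with the block, 0.64 within the limits and -0.20 to 0.29 with 1 mouse left out. In FAPs Efemp1 was 0.039 within the limits, and Sema3c 0.085 and Anxa3 0.19 at resolution 1.2, where far fewer cells kept the FAP name. In Dmknhi fibroblasts Dpp4 was -0.046 at resolution 0.4 and -0.051 to 0.12 with 1 mouse left out, Efemp1 was -0.0011 with the block, -0.026 at resolution 0.4 and -0.10 to 0.21, and Anxa3 was 0.093 within the limits. The Cd55 interaction was -0.041 within the limits, -0.060 without doublets and -0.23 to 0.26. Of 449 values of single genes under an alternative, 379 kept direction and side of the threshold, 30 lost a call, 20 gained one and 20 turned direction. Within the limits WT replicates 2 and 3 kept 18 and 8 mesothelial cells, so the mesothelial fit, with its minimum of 20, was not run. The interaction was fitted there without that minimum, and its values rest on these few cells.

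Whether the same replicate number pairs the mice is not known: littermates of both genotypes shared a processing date, but the labels tie no number to a date. Deviations of same-numbered mice correlated at 0.205, -0.127 and 0.158 in fibroblast-like and 0.217, -0.123 and 0.0612 in mesothelial cells. With the replicate number as a block, Cd55 (edgeR adjusted p = 0.0462) was called in fibroblast-like cells, among 1317 of 13960 genes. Efemp1 (edgeR adjusted p = 0.024) and Sema3c (0.036) were called in mesothelial cells, among 443 of 11713 genes. Few WT mesothelial cells, 67 to 165 per mouse, limit what depth can show there.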
